A study of Homo sapiens with 6 samples.

Results

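The insulin and ERBB branch of growth factor signaling was described through 10 genes, 2 receptors of the insulin family (INSR and IGF1R), 3 insulin receptor substrates (IRS1, IRS2 and IRS4), 2 ERBB receptors (ERBB2 and ERBB3) and 3 FOXO transcription factors (FOXO1, FOXO3 and FOXO4). They were found by gene name among 19211 genes named in the mRNA-seq table, where they had 15 of 38438 transcripts, and in the lists of LARP1 binding sites. All samples were HEK293T cells, which derive from human embryonic kidney and carry the SV40 large T antigen. Growing cells were compared with mTOR-inactive cells, which had received PP242, a compound that blocks the mTOR kinase, at 2.5 µM. The duration of the PP242 treatment is not given in the sources used here. For mRNA levels, each condition had 2 mRNA-seq libraries, which the labels call biological duplicates. For LARP1 binding, each condition had 1 PAR-CLIP library, made after the cells had taken up 100 µM 4-thiouridine for 14 hr and were irradiated with ultraviolet light at 150 mJ/cm2. HEK293T is a single transformed line, so the levels describe that line and not kidney tissue.

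Insulin and insulin-like growth factors bind INSR and IGF1R, which phosphorylate IRS proteins, and these recruit PI3-kinase and so activate AKT. Dimers of ERBB2 and ERBB3 feed the same kinase when a neuregulin binds ERBB3. AKT phosphorylates FOXO proteins and keeps them out of the nucleus, and mTOR acts on both ends of the pathway, because mTORC2 phosphorylates AKT and mTORC1 signaling restrains receptors and IRS proteins. LARP1 is an RNA-binding protein controlled by mTORC1 and known for its binding to mRNAs of the translation machinery. In PAR-CLIP, 4-thiouridine in the RNA is crosslinked to the bound protein and then read as a T-to-C conversion.

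Among the members the IRS4 mRNA was by far the most abundant, and none of the members passed the test for a change after PP242. IRS4 stood at 173 RPKM ± 2.27 (SD, n = 2) in growing cells, whereas every other member transcript was under 10 RPKM. IRS2 showed the largest difference after PP242, 0.14 on the log2(RPKM + 1) scale, with an adjusted p of 0.113 in limma. FOXO3 was the 1 member with a strong LARP1 site, of 413 RPM in the 3'UTR, and it was listed for growing cells and not for mTOR-inactive cells.

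RPKM is the number of reads scaled to the length of the transcript and to the mapped reads of the library, so levels are compared here per length. A gene is described by its transcript with the highest mean RPKM over the 4 libraries, called its main transcript. Reads shared by isoforms were divided between them, so levels and ratios of genes compare single transcripts here. The relative depth of the libraries, read from the steps between low RPKM values, was 1, 1.06, 1.04 and 1.06, and values above 0 were listed for 36046 to 36149 transcripts. Limma was run on the 21014 transcripts whose mean reached 1 RPKM, and 8 of the 10 members passed this minimum while IRS1 and ERBB3 did not. With 2 libraries against 2, an exact permutation test of a single gene cannot give a two-sided p under 0.333, so the tests rest on the spread that limma shares across transcripts. Of the 11693 genes tested, 461 (3.94%) were called higher and 971 (8.3%) lower after PP242 at an adjusted p under 0.05. All 8 markers of HEK293 cells had a transcript, and they summed to 288 to 291 RPKM in growing and 315 to 317 RPKM in mTOR-inactive cells. VIM made up most of each sum, while PAX2 was at 0.116 to 0.136 RPKM, below the blood cell marker LYZ (0.574 to 0.780 RPKM). Among the 8, VIM, the intermediate filament vimentin, was higher after PP242 (211 against 238 RPKM, adjusted p = 0.00704) and GATA3, a transcription factor, was lower (3.51 against 2.04 RPKM, adjusted p = 0.00432). Their part in the results was not tested. Of the 5 blood cell markers, CD3E and HBB had no transcript, and the rest summed to 0.862 to 1.00 RPKM in every library. PTPRC was listed at 0 in 3 of the 4 libraries. The fibroblast and endothelial markers summed to 2.41 to 2.44 RPKM, and the liver and muscle markers to 0.319 to 0.482 RPKM.

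The members covered a wide range of levels, and their order was kept in all libraries. By main transcript, from highest to lowest, it ran IRS4, IGF1R, ERBB2, FOXO3, FOXO1, FOXO4, INSR, IRS2, ERBB3 and IRS1. ERBB2 and FOXO3 had another isoform of similar level and IGF1R had none, so adding isoforms would place both above IGF1R. No library of one gene lay within the range of its neighbor in this order. Among 20062 genes ranked by the mean RPKM of their main transcript in growing cells, without adding isoforms, IRS4 was at rank 216 and above 98.9% of them. IGF1R was at rank 5636 and above 71.9%, while IRS1 was at rank 13044 and above 35.0%.

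**Figure D1:**
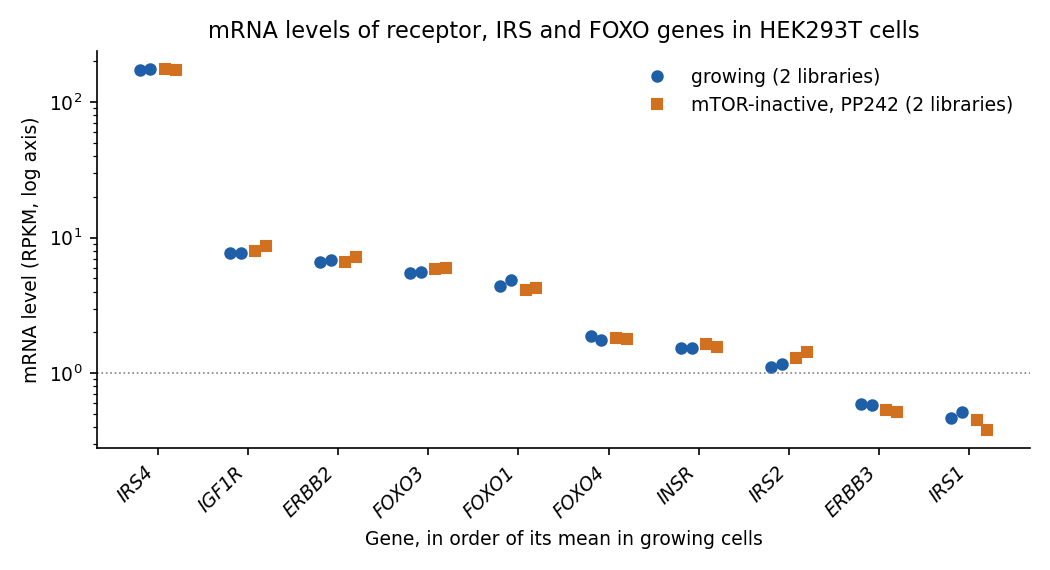
mRNA level (RPKM, log axis) of the main transcript of each member in the 2 growing and the 2 mTOR-inactive libraries, with one point per library and a dotted line at the minimum mean of 1 RPKM. IRS4 lies above 170 RPKM in all 4 libraries, IRS1 and ERBB3 lie under the line, and the points of each gene stay close together.

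The main transcripts of the insulin family receptors differed several-fold in level. IGF1R, the receptor for insulin-like growth factors (NM_000875.3, chromosome 15, 99191768 to 99507759, plus strand, GRCh37), had 7.68 and 7.65 RPKM in growing libraries and 8.03 and 8.65 RPKM in mTOR-inactive libraries. Both mTOR-inactive libraries were above both growing ones. The mean went from 7.66 ± 0.0199 to 8.34 ± 0.439 RPKM (SD, n = 2), a log2 difference of 0.11 with a 95% interval of 0.01 to 0.21. The adjusted p in limma was 0.152. INSR, the insulin receptor (NM_001079817.1, chromosome 19, 7112266 to 7294425, minus strand), had 1.52 and 1.55 RPKM in growing libraries and 1.65 and 1.56 RPKM in mTOR-inactive libraries. These groups did not overlap either, but the difference was small, at 0.04 on the log2 scale with an interval of -0.06 to 0.14 and an adjusted p of 0.559. The other INSR isoform, NM_000208.2, had nearly the same level (1.52 ± 0.00820 and 1.59 ± 0.0748 RPKM), and reads shared by isoforms cannot be told apart in these values. Within each library IGF1R had between 4.86 and 5.54 times the RPKM of the main INSR transcript. This ratio would be smaller with both INSR isoforms added.

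Among the insulin receptor substrates, the docking proteins that carry the signal from these receptors to PI3-kinase, nearly all mRNA was IRS4. IRS4 (NM_003604.2, chromosome X, 107963176 to 107979793, minus strand) had 171 and 174 RPKM in growing libraries and 176 and 173 RPKM in mTOR-inactive libraries. The groups overlapped, the log2 difference was 0.01, and its 95% interval ran from -0.04 to 0.07, with an adjusted p of 0.726. IRS4 made up 99.0% to 99.1% of the summed RPKM of IRS1, IRS2 and IRS4 in every library, and had 121 to 154 times the RPKM of IRS2 and 339 to 454 times that of IRS1.

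IRS2 (NM_003749.2, chromosome 13, 110405042 to 110438930, minus strand) is a substrate through which insulin acts in liver and pancreatic beta cells. It had 1.11 and 1.16 RPKM in growing libraries and 1.29 and 1.43 RPKM in mTOR-inactive libraries, so that the groups did not overlap. The mean was 19.4% larger after PP242 (1.14 ± 0.0390 against 1.36 ± 0.0993 RPKM), and the log2 difference of 0.14 had a 95% interval of 0.03 to 0.25. IRS1 (NM_005544.2, chromosome 2, 227596028 to 227664536, minus strand) is the main substrate in muscle and fat. Its values were 0.466 and 0.514 RPKM in growing libraries and 0.452 and 0.381 RPKM in mTOR-inactive libraries, in the opposite direction to IRS2. It was under the minimum of 1 RPKM, and in a fit without that minimum its log2 difference was -0.07 with an adjusted p of 0.395. The ratio of IRS2 to IRS1 lay between 2.26 and 3.75 over the 4 libraries.

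The ERBB receptors were present at unequal levels. ERBB2, which has no ligand of its own and signals as a partner of other ERBB receptors (NM_004448.2, chromosome 17, 37844167 to 37886679, plus strand), had 6.63 and 6.82 RPKM in growing libraries and 6.66 and 7.14 RPKM in mTOR-inactive libraries. The groups overlapped, with a log2 difference of 0.03, a 95% interval of -0.07 to 0.13 and an adjusted p of 0.648. Its other isoform, NM_001005862.1, had means of 6.27 and 6.36 RPKM. ERBB3, the neuregulin receptor with a weak kinase (NM_001982.3, chromosome 12, 56470583 to 56497289, plus strand), had 0.595 and 0.586 RPKM in growing libraries and 0.536 and 0.520 RPKM in mTOR-inactive libraries. The mTOR-inactive values were both lower, and without the minimum on RPKM the log2 difference was -0.06 with an adjusted p of 0.282. The shorter ERBB3 transcript, NM_001005915.1, went from 0.405 ± 0.0637 to 0.277 ± 0.0907 RPKM. By main transcript, ERBB2 had 11.1 to 13.7 times the RPKM of ERBB3, and IGF1R had 1.12 to 1.21 times that of ERBB2. IGF1R had no other listed isoform, so with isoforms added ERBB2 would lie above IGF1R.

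The FOXO factors, which switch on genes for cell cycle arrest and metabolism when AKT is off, were led by FOXO3. FOXO3 (NM_001455.3, chromosome 6, 108881038 to 109005977, plus strand) had 5.51 and 5.59 RPKM in growing libraries and 5.83 and 5.99 RPKM in mTOR-inactive libraries. FOXO1 (NM_002015.3, chromosome 13, 41129804 to 41240778, minus strand) had 4.42 and 4.85 RPKM in growing libraries and 4.14 and 4.28 RPKM in mTOR-inactive libraries. These neighbors in function differed from growing cells in opposite directions, and neither passed the test. The log2 difference of FOXO3 was 0.08 with a 95% interval of -0.00 to 0.16 and an adjusted p of 0.193. That of FOXO1 was -0.11 with an interval of -0.23 to 0.00 and an adjusted p of 0.185. FOXO4 (NM_005938.3, chromosome X, 70315701 to 70323382, plus strand) had 1.90 and 1.76 RPKM in growing libraries and 1.82 and 1.79 RPKM in mTOR-inactive libraries, where the groups overlapped (log2 difference -0.01, interval -0.11 to 0.09, adjusted p = 0.890). By main transcript, FOXO3 had 45.8% to 49.7% of the summed RPKM of the 3 FOXO genes, and 1.15 to 1.41 times the RPKM of FOXO1. The isoforms FOXO3 NM_201559.2 (5.53 and 5.91 RPKM) and FOXO4 NM_001170931.1 (1.71 and 1.68 RPKM) lay close to the main transcripts. FOXO1 had no other listed isoform, so the FOXO3 share and its ratio to FOXO1 would be larger with isoforms added.

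In all, 0 of the 8 tested members were called higher or lower by limma, where 3.94% and 8.3% of all tested genes were. At an unadjusted p under 0.05 in limma, 2 of the 8 passed, IGF1R and IRS2, compared with 3711 of the 11693 genes. The count stayed at 0 under all 12 alternative settings tried, and the lowest adjusted p of a member over those settings was 0.0944, for IRS2. Of the tested members 6 had a difference above 0 and 2 below, with a median of 0.04 against a median of -0.00 for all tested genes. In 4 of the 8 both mTOR-inactive libraries were above both growing libraries, and in 1 both were below. Over all tested genes the libraries were separated upward in 27.8% and downward in 31.6%. Among the 6 members with a difference above 0, the upper limit of the 95% interval was lowest for IRS4, at 0.07, and highest for IRS2, at 0.25.

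**Figure D2:**
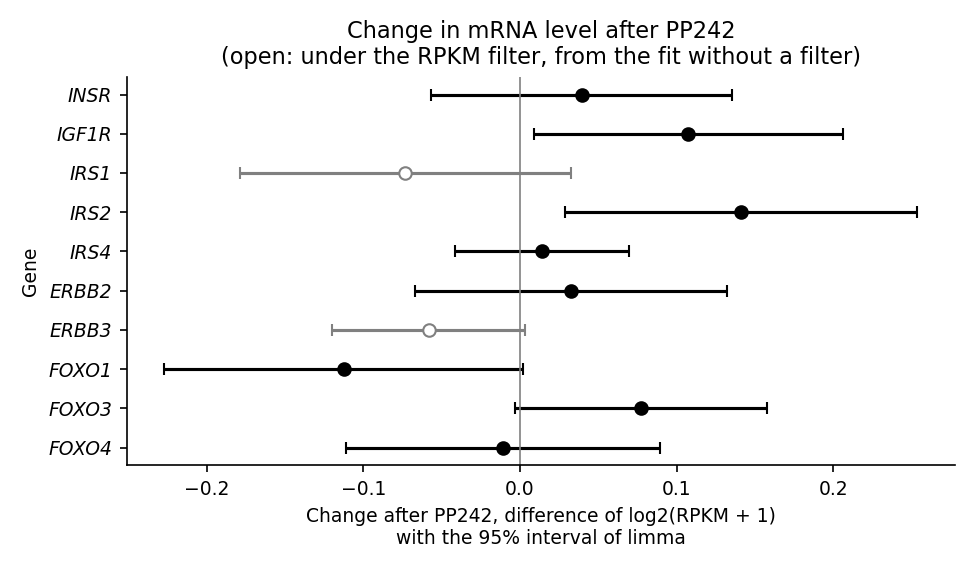
Difference of log2(RPKM + 1) between mTOR-inactive and growing cells for each member, with its 95% interval from limma and a vertical line at no difference. Filled points are the 8 tested members and open points are IRS1 and ERBB3 from the fit without a minimum on RPKM. IGF1R and IRS2 have intervals above 0, from 0.01 and 0.03 upward, and the largest interval limit is 0.25 for IRS2.

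The other genes of the pathway were taken from 7 lists with 113 genes, of which 109 had a transcript and 81 were tested. Limma called 9 of the 81 higher and 12 lower, where 3.94% and 8.3% of all tested genes were, and their median difference was -0.00. The lists of FOXO target genes and of FOXO partners held 14 of these 21 calls. All lists were chosen with earlier results of these data known, so these counts are no test of enrichment. Fewer were called when a single library was left out, with 7 genes called without growing replicate 1, 10 without growing replicate 2, 13 without mTOR-inactive replicate 1 and 10 without mTOR-inactive replicate 2. The calls of 6 genes, YWHAH, CDKN1A, CDKN1B, GADD45B, KLF6 and TSC22D3, held without any one library, and those of KLF6 and TSC22D3 held in every alternative setting run for them.

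Around the receptors, 5 genes passed the test, 1 of them higher and 4 lower, beside 3.94% and 8.3% of all tested genes. Of 13 ligands, 2 were expressed above the minimum and both were lower, namely HBEGF, a ligand of EGFR and ERBB4 (1.38 ± 0.0136 against 0.979 ± 0.166 RPKM, log2 difference -0.27, adjusted p = 0.0495), and NRG4, a ligand of ERBB4 (2.28 ± 0.0662 against 1.68 ± 0.0534 RPKM, -0.29, adjusted p = 0.0113). The call of HBEGF held in 1 of 11 alternative settings and that of NRG4 in 9 of 11. Of 4 other receptors, 2 were tested and 1 was higher, IGF2R, which clears insulin-like growth factor 2 from the cell surface (20.8 ± 0.310 against 22.98 ± 0.0117 RPKM, 0.13, adjusted p = 0.0330), a call that held in 6 of 12 alternative settings. EGFR was at 1.31 and 1.34 RPKM, with an adjusted p of 0.785. Among 14 tested adaptors CRKL was the 1 called, and it was lower (36.2 ± 0.375 against 32.1 ± 0.496 RPKM, -0.17, adjusted p = 0.0167). Among 13 tested receptor inhibitors, ERRFI1, which binds and blocks the kinases of EGFR and ERBB2, was lower (10.8 ± 0.430 against 9.17 ± 0.171 RPKM, -0.22, adjusted p = 0.0217). SOCS3, a feedback inhibitor that binds insulin and cytokine receptors, was under the minimum, with 0.664 and 0.647 RPKM in growing libraries and 0.235 and 0.240 RPKM in mTOR-inactive libraries. In the fit without the minimum its log2 difference was -0.42 with an adjusted p of 0.0332. It was singled out after its values were seen.

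Among 16 tested genes of PI3-kinase and AKT signaling, 1 was called higher and 1 lower, beside 3.94% and 8.3% of all tested genes. These were the paralogs PHLPP1 and PHLPP2, phosphatases that remove phosphate from AKT. PHLPP1 was higher (4.22 ± 0.0127 against 4.97 ± 0.267 RPKM, 0.19, adjusted p = 0.0408) and PHLPP2 lower (5.30 ± 0.0482 against 4.64 ± 0.0416 RPKM, -0.16, adjusted p = 0.0356), and their calls held in 7 and 5 of 11 alternative settings. The remaining 14 were not called, among them the kinase AKT1 (adjusted p = 0.720) and the catalytic subunit PIK3CA (adjusted p = 0.110).

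Of 15 tested FOXO partners and regulators, 1 was higher and 3 were lower, beside 3.94% and 8.3% of all tested genes. YWHAH, a 14-3-3 protein of the family that holds phosphorylated FOXO in the cytoplasm, had 83.6 and 82.2 RPKM in growing libraries and 71.4 and 71.0 RPKM in mTOR-inactive libraries (log2 difference -0.22, adjusted p = 0.00550). The ubiquitin ligases MDM2 (19.9 ± 0.457 against 17.1 ± 0.185 RPKM, -0.21, adjusted p = 0.0128) and SKP2 (18.7 ± 0.129 against 16.9 ± 0.480 RPKM, -0.14, adjusted p = 0.0409), which can mark FOXO proteins for degradation, were also lower. The call of SKP2 held in 4 of 12 alternative settings and was lost, among others, with libraries scaled to the same median, without a trend and with isoforms summed. FOXK1, a forkhead repressor, was higher (7.23 ± 0.0176 against 8.25 ± 0.272 RPKM, 0.17, adjusted p = 0.0359), a call that held in 7 of 12 alternative settings.

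Genes listed as FOXO targets moved in both directions. Of 30 such genes 19 were tested, 6 were called higher and 4 lower, beside 3.94% and 8.3% of all tested genes, and the median difference of the 19 was 0.01. Because the list was chosen with earlier results of these data known, its share of calls cannot show an enrichment of FOXO targets. KLF6, a zinc finger transcription factor, had the largest difference. It had 2.07 and 2.11 RPKM in growing libraries and 5.00 and 4.87 RPKM in mTOR-inactive libraries, a log2 difference of 0.94 with a 95% interval of 0.85 to 1.03 and an adjusted p of 0.000374. GADD45B, a stress gene that slows the cell cycle, had 6.89 and 6.19 RPKM in growing libraries and 10.3 and 10.2 RPKM in mTOR-inactive libraries (0.58, adjusted p = 0.00284). TSC22D3, the glucocorticoid-induced leucine zipper, had 38.5 and 39.7 RPKM in growing libraries and 56.9 and 56.1 RPKM in mTOR-inactive libraries (0.52, adjusted p = 0.000839). In all of these the mTOR-inactive libraries lay well above the growing ones. The other genes called higher were CDKN1B, a cell cycle inhibitor (12.0 ± 0.238 against 14.6 ± 0.289 RPKM, 0.27), CCNG2, a cyclin of resting cells (4.95 ± 0.182 against 6.16 ± 0.512 RPKM, 0.26), and GADD45A, a stress gene (8.13 ± 0.0668 against 9.38 ± 0.0588 RPKM, 0.19), and they were named after their values were seen. Their adjusted p in limma was 0.00688, 0.0391 and 0.0178, and their calls held in 11, 8 and 7 of 12 alternative settings.

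The largest fall among the listed FOXO targets was that of CDKN1A, the cell cycle inhibitor p21. CDKN1A had 3.77 and 3.73 RPKM in growing libraries and 2.39 and 2.18 RPKM in mTOR-inactive libraries (log2 difference -0.53, adjusted p = 0.00263), so that it moved against CDKN1B, the related inhibitor p27. EIF4EBP1, the translation repressor 4E-BP1, fell from 80.2 ± 2.19 to 70.8 ± 3.59 RPKM (-0.18, adjusted p = 0.0462), a call that held in 6 of 12 alternative settings. SESN2 (-0.13, adjusted p = 0.0427) and CITED2 (-0.18, adjusted p = 0.0286), named after their values were seen, were lower as well, and their calls held in 5 and 8 of 12 settings. Several listed targets of liver and muscle were too low to test, with means over the 4 libraries of 0.0202 RPKM for G6PC, 0.0729 RPKM for PCK1 and 0.00432 RPKM for IGFBP1.

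**Figure D3:**
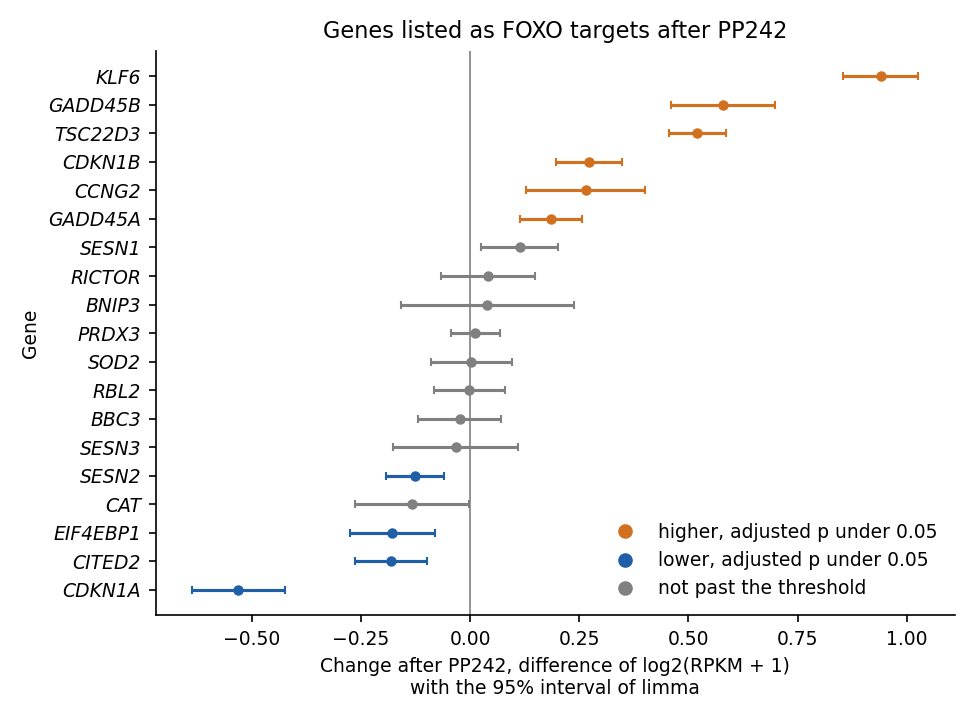
Difference of log2(RPKM + 1) between mTOR-inactive and growing cells for the 19 tested genes listed as FOXO targets, with 95% intervals from limma and colors for genes called higher, called lower or not called. Calls lie on both sides of 0, from CDKN1A at -0.53 to KLF6 at 0.94.

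Forkhead motifs near the start sites were read from RefSeq promoters of GRCh38.p14, which hold 250 bases before and 50 bases after each start. For each listed gene only the first promoter entry was searched, whereas the share over all promoters counts every entry. The motif searched was TGTTTAC, the core letters that FOXO proteins bind, together with GTAAACA, the same motif on the other strand, and 1202 of 35116 promoters (3.42%) held it. Of 9 members with a promoter entry 1 held it, FOXO4, and of 24 listed FOXO targets 1 held it, BCL2L11, a promoter of cell death that was at 0.539 RPKM in growing and 0.414 RPKM in mTOR-inactive cells. Among 15 PI3-kinase and AKT genes it was present in 1, PIK3CA (3.08 against 2.75 RPKM, -0.12). The matches are shown with 11 bases on either side and the motif in capitals, because they are the ones found in the members, the kinase genes and the listed targets. The ligands IGF1 and BTC, 2 of 11 with an entry, also held it.
FOXO4: cccggcgagtgGTAAACAgagacgtcagg
PIK3CA: agttcgttgttTGTTTACacgatgtgagc
BCL2L11: gagttactccgGTAAACAcgccagggacg
The FOXO4 window lies at chrX:71095863-71095891 on the plus strand, with the match from 23 to 29 bases after the start. The PIK3CA window lies at chr3:179148197-179148225 (plus strand), where the match runs from -149 to -143, and the BCL2L11 window at chr2:111120680-111120708 (plus strand), where it runs from -223 to -217. The promoters of KLF6, GADD45B and TSC22D3 gave no match, which says only that these letters are not in the windows searched. None of the 9 member promoters had a TOP-like start, a C followed by 4 pyrimidines, compared with 4.07% of all promoters.

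LARP1 sites on the members were few, and all lay in 3'UTRs. A site is a cluster of PAR-CLIP reads on a transcript, and the paper describes its RPM as its reads scaled to the mapped reads of the library. How many reads stand behind the lowest values, such as 0.0018 RPM for INSR, is not given. Under growing conditions 2 of the 10 members had a site, FOXO3 and INSR, whereas 9.42% of 17022 genes had one. These 17022 genes were counted whatever their mRNA level, whereas 8 of the 10 members reached a mean of 1 RPKM. With a minimum of 1 RPM this left 1 member, FOXO3, beside 1.3% of the genes. Under mTOR-inactive conditions 1 member had a site, ERBB3, beside 9.54% of the genes, and none had a site of at least 1 RPM, beside 2.56%. With 1 library per condition there is no replicate check of these values, and no p-value is given.

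The FOXO3 site under growing conditions covered bases 3881 to 3900 of NM_001455.3 and had 413 RPM. It was listed again on the other isoform, NM_201559.2, at bases 3854 to 3873. No other gene was listed with the same RPM. The site lists also relate RPM to transcript abundance, as 1000 times RPM over mean RPKM, and on that scale the site came to 74382. It was at rank 57 of 1299 distinct 3'UTR sites, whose median was 0.0048 RPM, and at rank 101 of 1907 distinct sites on mRNAs. The T-to-C column of this site was at 100% of 25.8 times its RPM, the most common multiple in this library, called usual below. Of the sites of at least 1 RPM in this library, 43.7% lay within 1% of that multiple. Under mTOR-inactive conditions the multiple was 28.3, and 67.2% of such sites lay within 1% of it.

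The other member sites were near or below the bulk of the lists. A second FOXO3 site under growing conditions, at bases 6146 to 6166, had 0.0031 RPM, a value also listed on 20 other genes. INSR had 0.0018 RPM at bases 4591 to 4615 of NM_000208.2, a value listed on 35 other genes. ERBB3 under mTOR-inactive conditions had 0.0259 RPM at bases 5058 to 5083 of NM_001982.3, close to the median of 0.0253 RPM of 3'UTR sites in that list, where T-to-C reached 16.4% of the usual multiple. IGF1R, IRS1, IRS2, IRS4, ERBB2, FOXO1 and FOXO4 were listed with no site in either condition, although IRS4 was among the most abundant mRNAs.

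**Figure D4:**
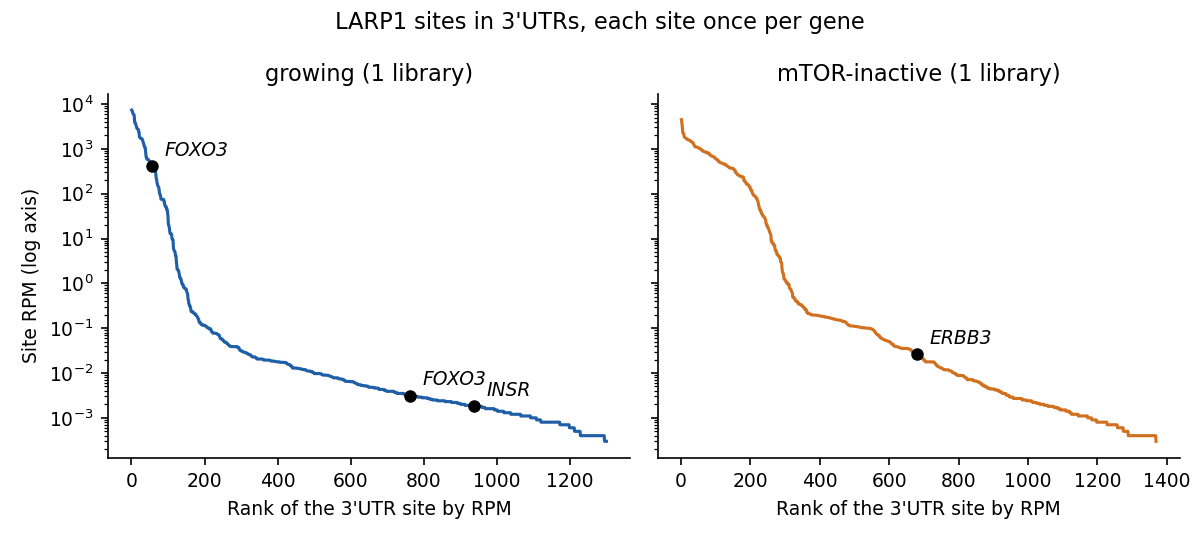
RPM (log axis) of distinct LARP1 sites in 3'UTRs against their rank in the growing library (1299 sites) and the mTOR-inactive library (1369 sites), with the member sites as black points. The FOXO3 site lies on the steep left part of the growing curve at 413 RPM, and the other 3 member sites lie on the flat part under 0.03 RPM.

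The FOXO3 site of growing cells was not listed after PP242, while FOXO3 mRNA differed by 0.08 on the log2 scale. Absence from the list was common among strong 3'UTR sites. Of 77 distinct 3'UTR sites of at least 100 RPM under growing conditions, 58 had no overlapping site on the same transcript under mTOR-inactive conditions, and 191 of 207 such sites under mTOR-inactive conditions had none under growing conditions. Member sites held 0.218% of the RPM of listed mRNA sites in the growing library, with the FOXO3 site counted on both isoforms, and 6.86e-06% in the mTOR-inactive library. With copies on isoforms counted once, these shares were 0.156% and 9.07e-06%. After normalization to RPKM, with copies kept, they were 0.00995% and 4.99e-05%, and with 1 library each the condition and the library cannot be told apart.

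Among the 113 other pathway genes, 19 had a LARP1 site in growing cells and 12 in mTOR-inactive cells, and for 5 and 3 of them it reached 1 RPM. Over all 17022 genes, whatever their mRNA level, the shares with a site were 9.42% and 9.54%, and with a site of 1 RPM or more 1.3% and 2.56%. The strongest was on CBL, a ubiquitin ligase that takes EGFR and other receptors from the surface, with 1569 RPM at bases 10347 to 10370 of NM_005188.3 in the 3'UTR under mTOR-inactive conditions. EIF4EBP1 followed with 296 RPM in its 3'UTR, also under mTOR-inactive conditions, and SESN1, a stress protein that restrains mTORC1, had 7.16 RPM in its 5'UTR. Under growing conditions the sites were on the 3'UTRs of TSC22D3 (67.9 RPM), YWHAB (20.4 RPM), CDKN1A (18.6 RPM) and ERBB4 (1.24 RPM), and on the coding sequence of EP300 (46.6 RPM), an acetyltransferase that works with FOXO proteins. T-to-C values reached 99.4% to 100% of their usual multiple for EP300, YWHAB, ERBB4, CBL and EIF4EBP1. They were at 0.324% or less for TSC22D3, CDKN1A and SESN1, which by this column, whose scale is not described, had little T-to-C signal. No pathway gene had a site of at least 1 RPM in both conditions.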

How the data were processed

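Human HEK293T cells were profiled by mRNA-seq (2 libraries per condition) and LARP1 PAR-CLIP (1 library per condition). The authors mapped reads to the GRCh37 transcriptome with Bowtie (version not given in the sources used here) and, for mRNA-seq, kept perfect matches, divided reads matching several loci evenly and deposited RPKM per transcript. PAR-CLIP reads carrying few T-to-C mismatches were clustered by the authors, who deposited the signal of each site as RPM. The site lists also hold a deposited ratio, site RPM divided by mean transcript RPKM, and a deposited T-to-C score whose scale the methods do not describe. Without read totals, sites have no counting error here.

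From 39711 lines, 1273 repeated lines were dropped, leaving 38438 transcripts, and 2860 of 5989 unnamed ones took a name from RefSeq by accession. Differences were tested with limma 3.58.1 (R 4.3.3; lmFit, eBayes with trend) on log2(RPKM + 1), which understates the change of low transcripts. The test covered 21014 transcripts whose mean reached 1 RPKM, the Benjamini-Hochberg adjustment ran over all of them, and calls were made at 0.05. RPKM is not a count, so no count model was fitted. A gene was counted by its transcript with the highest mean RPKM. P-values set the difference between conditions against the spread between these libraries, which limma shares across transcripts. This step was first tested on simulated data with differences of 1 on the log2 scale. These were much larger than those of the members, so the simulation does not show whether such small differences would be found. Other steps ran in Python 3.11.15 (pandas 2.3.3, numpy 2.4.6, scipy 1.17.1), with matplotlib 3.10.9 for plots. Gene positions are those of Gencode on GRCh37.

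Named genes are all 10 members, from each list up to 4 called genes with the largest change and separated libraries, and list genes whose site reached 1 RPM. Other pathway genes (SOCS3, EGFR, AKT1, PIK3CA, G6PC, PCK1, IGFBP1, BCL2L11, IGF1, BTC and the FOXO targets beyond the 4 largest changes) were chosen after their values were seen. For members past the threshold, genes with the most similar profile were to be named, and no member passed. The members and lists were chosen with earlier results of these data known. The alternatives were other pseudocounts and minimums, scaling to the same median, no trend, isoform sums, a replicate block, leaving out each library, and other counts of LARP1 sites.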

Additional observations from a re-analysis of the deposited data

How the results depend on the processing

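No member was called under any alternative, and of 94 values of single members under alternatives 92 kept their direction and 2 reversed. When single libraries were left out, ERBB2 ranged from -0.012 (without mTOR-inactive replicate 2) to 0.076 and FOXO4 from -0.045 to 0.023 (without growing replicate 1). Over all transcripts 731 were higher and 1356 lower. Without a minimum on RPKM these counts were 57 and 63, and 3 pathway genes were called in place of 21. Leaving out 1 library, with a lone library assumed to vary like the other condition, gave 309 to 348 higher and 546 to 768 lower transcripts and 7 to 13 pathway genes; the cause was not tested, apart from the fewer libraries. With a replicate block 716 transcripts were higher and 1419 lower, 20 pathway genes were called and no member. The replicate numbers did not pair the libraries in the data (correlation of deviations 0.0401 over 21014 transcripts, 2 pairs). Scaling to the same median gave 868 higher and 1105 lower. The members' share of LARP1 RPM on mRNAs under growing conditions was 0.218% with a minimum of 1 RPM, 0.156% with copies on isoforms counted once and 0.00995% after normalization to RPKM. Under mTOR-inactive conditions it was 0%, 9.07e-06% and 4.99e-05%. With a minimum of 1 RPM the members with a site went from 2 to 1 under growing and from 1 to 0 under mTOR-inactive conditions. RPKM gives no read number, so the precision of low members such as IRS1 and ERBB3 is limited by their level.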
